A study of Mus musculus with 9 samples.

Results

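The 8 genes Mapk3, Mapk7, Mapk8, Mapk9, Mapk11, Mapk12, Mapk13 and Mapk14 encode mitogen-activated protein (MAP) kinases of the ERK, JNK and p38 subfamilies. They were taken by gene symbol from a table of 38215 genes, in which each was found once. All 8 were among the 14944 genes that passed a filter on low counts and were tested.

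RNA was sequenced from bone marrow cells of 9 C57BL/6J mice. Every mouse carried Jak2V617F, the activating change in the kinase Jak2 known from myeloproliferative neoplasms, and every mouse had received tamoxifen. The 5 mice of the control group have EV in their titles, an abbreviation that the labels do not spell out, and Jak2V617F as their only genotype. The 4 mice of the other group, numbered 1, 2, 3 and 5, also have sgZrsr2 in their genotype and are described as having lost Zrsr2. Sorting kept LSK cells, which lack lineage markers and carry Sca1 and Kit, a fraction that holds haematopoietic stem cells and multipotent progenitors, and among them cells with both GFP and mCherry. The labels give no age, and they do not say what tamoxifen switched on or how many guides were used. The comparison of sgZrsr2 with EV asks what loss of Zrsr2 adds to Jak2V617F.

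MAP kinases are the last enzymes of a cascade in which a MAP kinase kinase kinase phosphorylates a MAP kinase kinase, which phosphorylates the MAP kinase on a threonine and a tyrosine of its activation loop. ERK is best known for signals from growth factors and cytokines, and JNK and p38 for signals from stress and inflammation. In haematopoietic cells ERK lies downstream of cytokine receptors that use Jak2, and p38 activity has been linked to stem cells leaving quiescence. Zrsr2 serves the minor spliceosome, the machinery for the rare U12-type introns. Most of these begin with a long, nearly fixed donor sequence, and several MAP kinase genes are known to carry one. Counts per gene, which are all that was measured here, show neither splicing, nor intron retention, nor kinase activity.

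The motif that marks a U12-type donor was found in 5 of the 8 genes, and these donors are shown because they are what links the family to Zrsr2. Intron bases were read where an exon of another annotated transcript covers them (GENCODE M21 transcripts, GRCm38), so only some introns could be read. Each line gives the last 12 bases of an exon and the first 12 of the intron after it, with the motif GTATCCTT, the first 8 bases of the intron, in capitals.
Mapk3, intron 2 of 8 (chr7:126760902-126760925, plus strand): catgagagatgtGTATCCTTcacc
Mapk8, intron 7 of 11 (chr14:33390230-33390253, minus strand): caggtacagatcGTATCCTTatct
Mapk8, after its alternative exon (chr14:33390661-33390684, minus strand): caggaagggactGTATCCTTgtgc
Mapk9, intron 7 of 11 (chr11:49874324-49874347, plus strand): aaggtactgaccGTATCCTTcccc
Mapk11, intron 8 of 11 (chr15:89145363-89145386, minus strand): ctggaaacgactGTATCCTTgggg
Mapk12, intron 8 of 11 (chr15:89133067-89133090, minus strand): aaggcaatgaccGTATCCTTctat

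Among all introns that could be read in this way, 184 of 42813 (0.43%) began with GTATCCTT or its variant ATATCCTT, on the transcript's strand. In the JNK and p38 genes the motif followed an exon of the same length. Each of these 6 genes has an exon of 72 bases at this place, and every donor that could be read after such an exon, in Mapk8, Mapk9, Mapk11 and Mapk12, held the motif. The exons themselves were identical between pairs of the 6 genes at 63.9% to 79.2% of their bases, with Mapk8 and Mapk9 at 79.2% and Mapk12 and Mapk13 also at 79.2%. Mapk8 and Mapk9 each have 2 exons of 72 bases that replace each other: in both genes 0 annotated transcripts hold both. The donor after the first of these exons in Mapk9, and those after the 72-base exons of Mapk13 (chr17:28776502-28776573) and Mapk14 (chr17:28728904-28728975), could not be read. In Mapk3 the motif stood in intron 2, after an exon of 183 bases. In Mapk7 all 6 donors were read and 0 held the motif. Of the other introns of the family, 1 of the 2 read in Mapk3, 3 of 4 in Mapk8, 1 of 2 in Mapk9, 2 of 3 in Mapk11, 4 of 5 in Mapk12 and 2 of 2 in Mapk13 had a donor without it.

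The ends of 2 of these introns are shown because they also hold letters of the U12-type branch site, at which the lariat forms. The last 45 bases of the introns of Mapk11 and Mapk12 hold TTCCTNA, in capitals. Counted back from the intron's last base, the motif's first base is base 16 in Mapk11 and base 18 in Mapk12.
Mapk11, end of intron 8 (chr15:89145176-89145220, minus strand): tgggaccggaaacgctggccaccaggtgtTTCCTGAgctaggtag
Mapk12, end of intron 8 (chr15:89132981-89133025, minus strand): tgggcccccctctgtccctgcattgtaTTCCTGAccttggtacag

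TTCCTNA stood in the last 45 bases of 1132 of 34707 readable introns (3.26%). It was not in that window of intron 7 of Mapk8, and the windows of the Mapk3 and Mapk9 introns could not be read. The introns differed in length: 98 bases in Mapk12, 199 in Mapk11, 1259 in Mapk8, 2121 in Mapk3 and 3895 in Mapk9.

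The coding bases of the activation loops show how the subfamilies differ at the site that MAP kinase kinases phosphorylate. The threonine, the residue between and the tyrosine are in capitals (GENCODE M21 transcripts, GRCm38). In the ERK genes these codons read threonine, glutamate, tyrosine.
Mapk3 (chr7:126763404-126763496, plus strand): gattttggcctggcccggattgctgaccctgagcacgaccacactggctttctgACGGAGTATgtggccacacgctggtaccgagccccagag
Mapk7 (chr11:61491392-61491487, minus strand): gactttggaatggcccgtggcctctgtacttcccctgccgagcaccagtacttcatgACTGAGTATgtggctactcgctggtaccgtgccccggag

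In the JNK genes the middle residue is proline.
Mapk8 (chr14:33392973-33393053, minus strand): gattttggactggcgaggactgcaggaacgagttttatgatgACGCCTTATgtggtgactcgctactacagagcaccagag
Mapk9 (chr11:49872788-49872868, plus strand): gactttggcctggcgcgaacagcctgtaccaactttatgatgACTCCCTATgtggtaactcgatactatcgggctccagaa

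In the p38 genes it is glycine, and the loops are shorter, at 75 bases against 81 in the JNK genes, 93 in Mapk3 and 96 in Mapk7.
Mapk11 (chr15:89145836-89145910, minus strand): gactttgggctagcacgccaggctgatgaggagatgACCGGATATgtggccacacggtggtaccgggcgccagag
Mapk12 (chr15:89134646-89134720, minus strand): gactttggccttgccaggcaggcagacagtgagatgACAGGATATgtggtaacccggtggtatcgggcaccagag
Mapk13 (chr17:28776308-28776382, plus strand): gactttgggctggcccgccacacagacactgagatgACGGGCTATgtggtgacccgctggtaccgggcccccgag
Mapk14 (chr17:28728363-28728437, plus strand): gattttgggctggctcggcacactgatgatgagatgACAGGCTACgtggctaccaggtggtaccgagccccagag

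Libraries held 23238264 to 45585531 expected counts, as the RSEM program estimated them. Levels are given as CPM, the CPM of edgeR (counts divided by the library size) after scaling by TMM factors, which ran from 0.894 in EV 3 to 1.07. For Zrsr2 itself EV stood at 53.42 ± 4.94 CPM (SD, n = 5) and sgZrsr2 at 38.87 ± 5.3 CPM (SD, n = 4). The sgZrsr2 mean was thus 72.8% of that with EV, and counts per gene do not measure how far Zrsr2 function was lost. The groups did not overlap (exact permutation test, two-sided p = 0.0159, which no split of 5 and 4 libraries can go below). Of all genes tested, 3.06% were likewise without overlap. In the edgeR test over all genes the log2 fold change was -0.46 (unadjusted p = 0.0032, adjusted p = 0.714), so Zrsr2 was not called. The markers of the sort, Ly6a (Sca1) and Kit, summed to 286 to 562 CPM with EV and 426 to 659 CPM with sgZrsr2. Kit made up most of this sum, with means of 377.4 CPM with EV and 491.4 CPM with sgZrsr2. Ly6a went the other way, with means of 33.3 and 29.79 CPM. The lineage markers summed to 20.2 to 45.8 and 20.6 to 58.3 CPM, and of that list Cd3e, Ms4a1 and Ly6g lay below the filter. Car1, an erythroid gene, reached 10 CPM in 3 libraries, EV 5, sgZrsr2 3 and sgZrsr2 5. Sums of the erythroid list were 17.9 to 70.4 CPM with EV and 48.3 to 155 CPM with sgZrsr2, and of the megakaryocyte list 121 to 286 and 215 to 461 CPM. The lymphoid list ran from 241 to 4800 and from 595 to 2980 CPM, and the neutrophil list from 11.3 to 179 and from 23.4 to 216 CPM. Single genes weighed heavily here too: means with EV and sgZrsr2 were 166.8 and 245.2 CPM for Itga2b of the megakaryocyte list. They were 1371 and 1319 CPM for Ighm of the lymphoid list. The sums varied within both groups. The part of cell makeup in the values below was not tested, and in bulk RNA fewer cells of a type cannot be told apart from less RNA per cell. The labels number the mice but do not say how the libraries were prepared together, so p-values measure the spread between these 9 libraries.

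The 8 genes differed widely in level. Per kilobase of merged exons, Mapk14 (p38α) had the highest level, with a median of 69.8 CPM per kb over the 9 libraries (59.8 to 71.6). Mapk3 (ERK1) followed at 32.0 CPM per kb (26.1 to 37.3), then Mapk9 (JNK2) at 12 (10.4 to 15.3) and Mapk7 (ERK5) at 8.48 (6.9 to 10.3). Mapk8 (JNK1) was at 3.75 CPM per kb (3.15 to 6.13) and Mapk11 (p38β) at 1.71 (1.27 to 3.01). The lowest were Mapk12 (p38γ) at 0.461 (0.287 to 0.69) and Mapk13 (p38δ) at 0.384 (0.0707 to 0.951), and these were the only neighbours in the order whose ranges overlapped. The order in the middle rests on which length is used. Divided by the length of the principal transcript, Mapk8 (16.6 CPM per kb) stood above Mapk7 (12.3), and divided by coding length Mapk9 (64.1) stood next to Mapk3 (63.3).

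**Figure D1:**
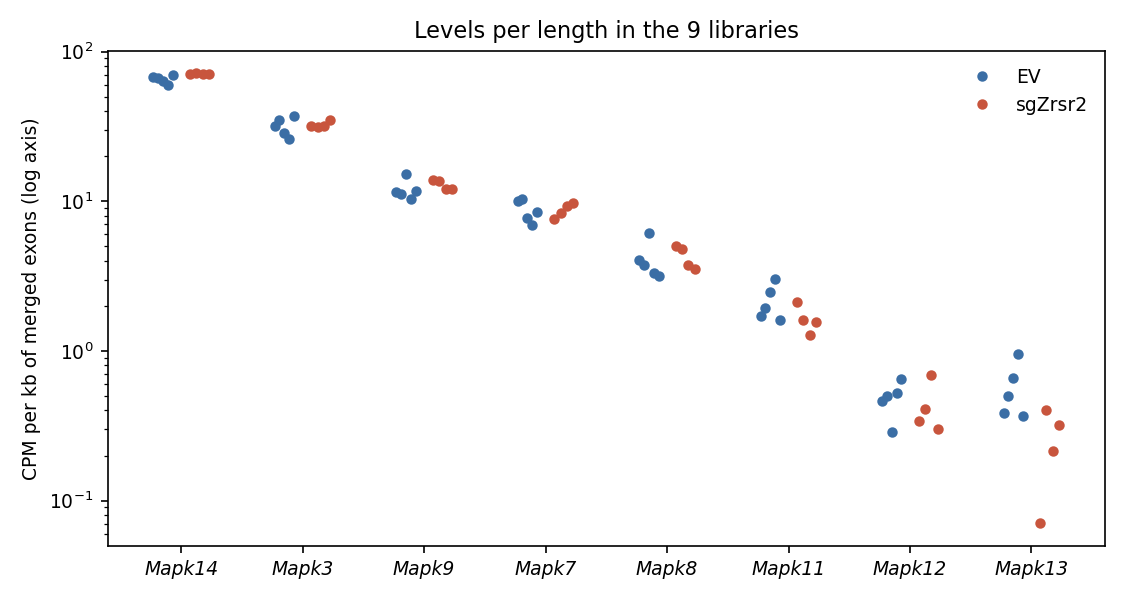
Level of each MAP kinase in each library, as CPM per kb of merged exons on a log axis, with EV libraries (n = 5) in blue and sgZrsr2 libraries (n = 4) in red. Mapk14 lies between 59.8 and 71.6 in all libraries, and Mapk12 and Mapk13, at the right, are the only neighbours whose ranges overlap.

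Within p38, Mapk14 made up 95.3% ± 1.4 of the summed level per kb with EV (SD, n = 5; 93.0% to 96.4%) and 96.8% ± 0.218 with sgZrsr2 (SD, n = 4; 96.6% to 97.0%). Mapk11 made up 3.17% ± 1.01 and 2.24% ± 0.473 of it. Within JNK, Mapk9 held 75.0% ± 2.72 with EV and 75.2% ± 1.88 with sgZrsr2 when divided by merged exons, but 49.7% ± 3.66 and 49.9% ± 2.53 when divided by the principal transcript, since the merged exons of Mapk8 span 11444 bases and its principal transcript 2587. Mapk10, the third JNK gene, was at or under 0.0664% in every library.

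None of the 8 MAP kinases was called by the genome-wide test, which does not show that their levels were unchanged. In edgeR's quasi-likelihood test with Benjamini-Hochberg adjustment over all genes, 0 of 8 reached an adjusted p of 0.05, and neither did any of the 14944 genes (0%); the DESeq2 Wald test called 16 genes and limma-voom 0, no MAP kinase of the 8 among them. At an unadjusted p under 0.05 stood 1 of the 8, Mapk13, which was lower with sgZrsr2, where 1024 of all genes (6.85%) did so. The groups did not overlap in 1 of the 8, Mapk14, which was higher with sgZrsr2, where 458 of all genes (3.06%) were without overlap. The fitted log2 fold changes were above 0 for 5 genes and below 0 for 3, with a median of 0.02 (range -1.17 to 0.12), and the median of all genes was -0.01. With 1 gene of 8 in each count, neither can be set apart from these shares.

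**Figure D2:**
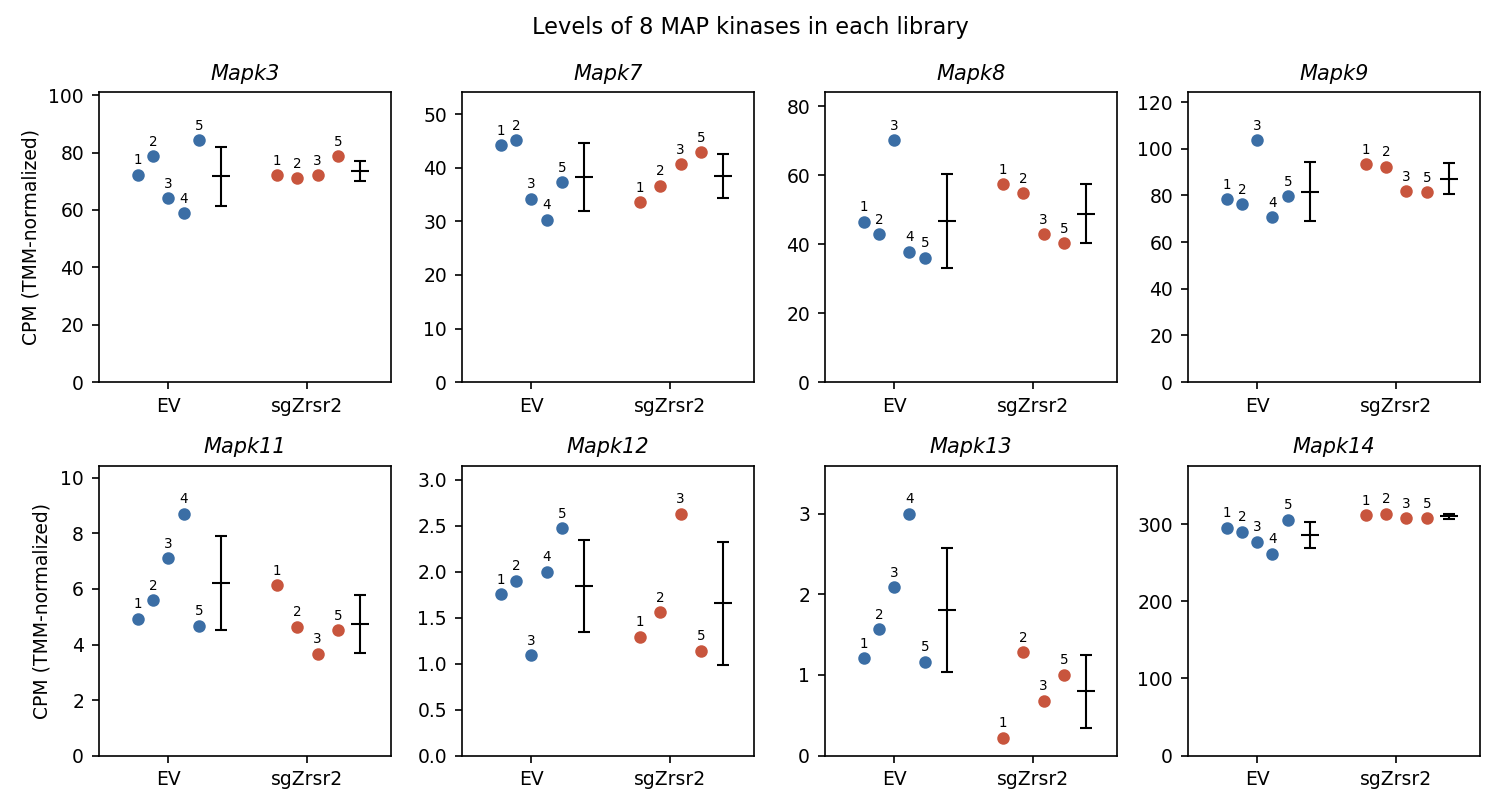
CPM of the 8 MAP kinases in each library, in linear panels that start at 0, with numbered points for mice and black bars for the group mean ± SD (EV n = 5, sgZrsr2 n = 4). The Mapk14 values with sgZrsr2 (307.5 to 313.3) sit just above the highest EV value (305.6), and the groups overlap in the other 7 panels.

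Mapk3 encodes ERK1, an effector of growth factor and cytokine receptors (ENSMUSG00000063065; chr7:126759601-126765819, plus strand). Its CPM was 72.25, 78.82, 64.13, 58.93 and 84.26 in EV mice 1 to 5. It was 72.17, 71.1, 72.1 and 78.77 in sgZrsr2 mice 1, 2, 3 and 5. The sgZrsr2 values all lay inside the EV range, whose ends were EV 4 and EV 5. Means were 71.68 ± 10.4 CPM (SD, n = 5) and 73.53 ± 3.52 CPM (SD, n = 4), and the log2 fold change was 0.04 (SE 0.12, 95% interval -0.22 to 0.30; edgeR adjusted p = 0.945). Each library held 1621 to 3566 counts of the gene.

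Mapk7 encodes ERK5, a larger kinase of its own cascade below Map2k5 (ENSMUSG00000001034; chr11:61488812-61494406, minus strand). EV mice 1 to 5 had 44.23, 45.09, 34.2, 30.3 and 37.26 CPM, and sgZrsr2 mice 1, 2, 3 and 5 had 33.57, 36.67, 40.65 and 42.88 CPM. Again every sgZrsr2 value fell inside the EV range. Means were 38.22 ± 6.39 CPM (SD, n = 5) and 38.44 ± 4.14 CPM (SD, n = 4), with a log2 fold change of 0.01 (SE 0.14, 95% interval -0.31 to 0.32; edgeR adjusted p = 0.988). Mapk7 shares bases with Mfap4 on the opposite strand, which had 0 counts in all libraries. The sign of such small values is not fixed: under limma-voom with sample weights the log2 fold change was -0.06 for Mapk3 and -0.19 for Mapk7, and with the mouse number as a replicate block it was -0.02 and -0.06.

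Mapk8 encodes JNK1, a kinase of stress signals that phosphorylates Jun (ENSMUSG00000021936; chr14:33377898-33447158, minus strand). Its CPM was 46.56, 42.95, 70.12, 37.8 and 36.07 in EV mice 1 to 5. With sgZrsr2 it was 57.43, 54.86, 42.96 and 40.23 in mice 1, 2, 3 and 5. EV 3 stood above all other libraries, and sgZrsr2 mice 1 and 2 stood above mice 3 and 5. Mice 3 and 5 are the sgZrsr2 libraries with Car1 at 10 CPM or more. Mice 1 and 2 had the lowest totals of all libraries (23238264 and 25857723 expected counts). They also had the lowest shares of values that were not whole (9.78% and 10.1%). Depth, preparation and cell makeup cannot be told apart in this split, and its cause was not tested. The means of 46.7 ± 13.7 CPM (SD, n = 5) and 48.87 ± 8.54 CPM (SD, n = 4) gave a log2 fold change of 0.07 (SE 0.20, 95% interval -0.38 to 0.51; edgeR adjusted p = 0.942). Without EV 3 the log2 fold change was 0.25, and without sgZrsr2 1 it was -0.03.

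Mapk9 encodes JNK2, the close relative of JNK1 (ENSMUSG00000020366; chr11:49846751-49886421, plus strand). Among EV mice 1 to 5 the CPM read 78.32, 76.3, 103.6, 70.57 and 79.58, and among sgZrsr2 mice 1, 2, 3 and 5 it read 93.4, 92.29, 81.88 and 81.3. As with Mapk8, EV 3 was the highest library, and sgZrsr2 mice 1 and 2 were above mice 3 and 5. All 4 sgZrsr2 values exceeded the EV values other than that of EV 3. Means were 81.67 ± 12.7 CPM (SD, n = 5) and 87.22 ± 6.52 CPM (SD, n = 4), and the log2 fold change was 0.09 (SE 0.12, 95% interval -0.18 to 0.37; edgeR adjusted p = 0.847). Without EV 3 it was 0.19 and without EV 4 it was 0.04. EV 3 had the lowest TMM factor and, under limma-voom, the lowest sample weight (0.294, against 4.52 for EV 2).

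Mapk14 encodes p38α, the main stress-activated kinase of the subfamily (ENSMUSG00000053436; chr17:28691342-28748404, plus strand). Its CPM was 295.2, 290.4, 277.3, 261.9 and 305.6 in EV mice 1 to 5. It was 311.6, 313.3, 307.5 and 307.9 in sgZrsr2 mice 1, 2, 3 and 5. All 4 sgZrsr2 libraries lay above all 5 EV libraries, by a narrow gap between EV 5 and sgZrsr2 3. Means were 286.1 ± 16.9 CPM (SD, n = 5) and 310.1 ± 2.83 CPM (SD, n = 4), so the sgZrsr2 mean was 108% of that with EV (two-sided exact permutation p = 0.0159). In the fit across all genes the log2 fold change was 0.12 (SE 0.09, 95% interval -0.08 to 0.31; edgeR unadjusted p = 0.215, adjusted p = 0.754). The lack of overlap depended on the scaling: divided by library totals alone the ranges were 247.7 to 318.7 with EV and 301.1 to 329.4 with sgZrsr2, and the exact permutation p was 0.0794. Scaled by RLE factors in place of TMM factors, the groups also overlapped, with EV 5 at 305.79 CPM and sgZrsr2 3 at 305.43 CPM. The highest counts of the family stood behind these values, at 6998 to 13137 per library. The lowest EV values were those of EV 4 and EV 3, which also had the lowest summed levels of Ly6a and Kit, a sum made up mostly of Kit. Not all libraries followed this order. The sum was 453 and 426 CPM in sgZrsr2 1 and 2 and 562 CPM in EV 5, where Mapk14 was lower. A link between the sum and Mapk14 was not tested.

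Mapk11 encodes p38β, which overlaps with p38α in function (ENSMUSG00000053137; chr15:89142486-89149606, minus strand). EV mice 1 to 5 had 4.924, 5.592, 7.108, 8.701 and 4.683 CPM, and sgZrsr2 mice 1, 2, 3 and 5 had 6.144, 4.638, 3.673 and 4.507 CPM. EV 4 and EV 3 were the highest libraries, the same that were lowest for Mapk14, and sgZrsr2 1 lay within the EV range while the other 3 sgZrsr2 libraries lay below every EV library. Means were 6.202 ± 1.69 CPM (SD, n = 5) and 4.74 ± 1.03 CPM (SD, n = 4), with a log2 fold change of -0.39 (SE 0.25, 95% interval -0.95 to 0.17; edgeR adjusted p = 0.735). The interval includes 0, and the log2 fold change was -0.24 without EV 4 and -0.18 under limma-voom.

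Mapk12 encodes p38γ, best known from muscle (ENSMUSG00000022610; chr15:89130585-89140703, minus strand). EV mice 1 to 5 had 1.756, 1.901, 1.091, 1.998 and 2.472 CPM, and sgZrsr2 mice 1, 2, 3 and 5 had 1.291, 1.559, 2.627 and 1.141 CPM. The highest and the next highest library belonged to different groups, and the lowest was EV 3. Means were 1.844 ± 0.499 CPM (SD, n = 5) and 1.654 ± 0.671 CPM (SD, n = 4), and the log2 fold change was -0.15 (SE 0.35, 95% interval -0.92 to 0.61; edgeR adjusted p = 0.917). The counts were few, at 29 to 108 per library, and the interval is wide, so differences of either sign within it remain possible. The log2 fold change was -0.47 without sgZrsr2 3, -0.00895 without sgZrsr2 5 and -0.02 without EV 5.

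Mapk13 encodes p38δ, known from epithelia and myeloid cells (ENSMUSG00000004864; chr17:28769307-28778698, plus strand). Its CPM was 1.209, 1.569, 2.089, 2.997 and 1.163 in EV mice 1 to 5, from 42, 71, 67, 135 and 40 counts. It was 0.2226, 1.28, 0.6811 and 1.002 in sgZrsr2 mice 1, 2, 3 and 5, from 5, 32, 28 and 36 counts. The groups overlapped, since sgZrsr2 2 lay above EV 1 and EV 5. EV 4 was the highest library and sgZrsr2 1 the lowest, and the 5 counts of the latter have an exact Poisson interval of 1.62 to 11.7 counts (95%; 0.0723 to 0.519 CPM), which covers counting error only.

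The Mapk13 means were 1.805 ± 0.762 CPM (SD, n = 5) and 0.7964 ± 0.454 CPM (SD, n = 4), so that the sgZrsr2 mean was 44.1% of that with EV (two-sided exact permutation p = 0.0476). The log2 fold change was -1.17 (SE 0.49, 95% interval -2.26 to -0.09), with an edgeR unadjusted p of 0.036 and an adjusted p of 0.714, above the threshold of 0.05 used over all genes, so the gene was not called. The unadjusted edgeR p rose to 0.0584 without EV 3 (log2 fold change -1.13), to 0.0952 without EV 4 (-0.91), to 0.0648 without sgZrsr2 1 (-0.89) and to 0.0792 without sgZrsr2 3 (-1.10). It was 0.0852 with the replicate block (-1.07) and 0.0935 without the 3 libraries with Car1 at 10 CPM or more (-1.37). It was 0.021 without sgZrsr2 2 (-1.49) and 0.0198 in the DESeq2 Wald test (-1.18). The direction was the same in all settings run.

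**Figure D3:**
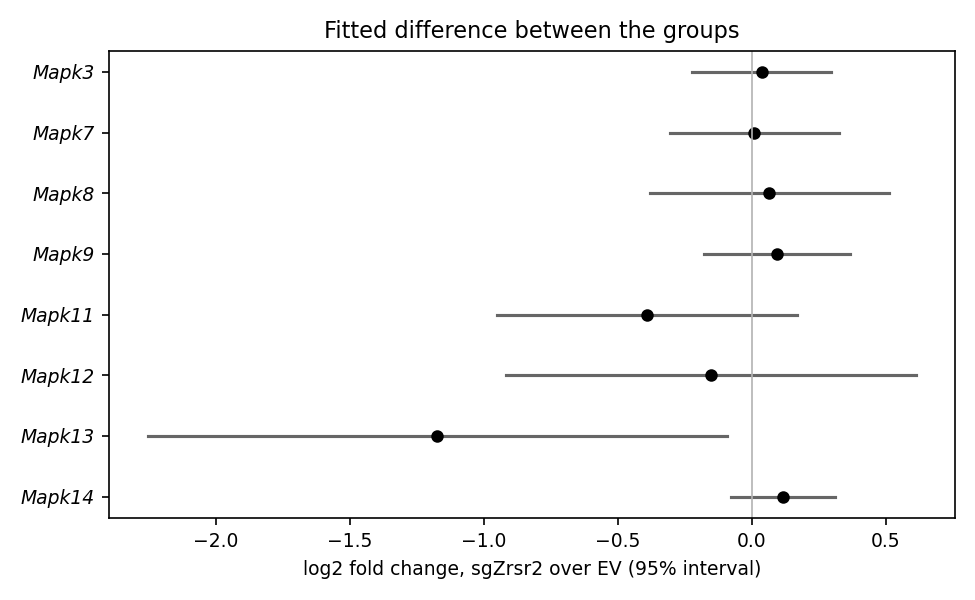
Fitted log2 fold change of each MAP kinase, sgZrsr2 over EV, with its 95% interval from edgeR (5 and 4 libraries). The interval of Mapk13 (-2.26 to -0.09) is the only one that does not include 0, and it is not adjusted for the number of genes tested.

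The 8 genes differed in precision. The intervals of Mapk3, Mapk7, Mapk9 and Mapk14 reached no further than 0.37 from 0 on the log2 scale, that of Mapk8 reached 0.51, and those of Mapk11, Mapk12 and Mapk13 reached -0.95, -0.92 and -2.26. Among EV libraries the coefficient of variation ran from 5.91% for Mapk14 to 42.2% for Mapk13, and among sgZrsr2 libraries from 0.914% to 57.0% for the same genes. The expected counts of 7 of the genes were whole in 9 of 9 libraries and those of Mapk14 in 8 of 9, so few if any reads were divided between paralogs.

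Over the 9 libraries, each MAP kinase was matched with the tested genes whose log2 CPM followed it most closely by Pearson's r, as a description of libraries that share their scaling and cell makeup. The highest value was that of Mapk8 with Senp6, a SUMO protease (r = 0.993), followed at 0.971 by Fndc3a. Mapk9 was close to Bdp1 (0.977), a subunit of the RNA polymerase III factor TFIIIB. Mapk14 was nearest to C330007P06Rik (0.976) and Plekhg5 (0.967). Mapk11 was nearest to the ribosomal protein gene Rpl36 (0.981) and Ift57 (0.98), and Mapk13 to the transcription factor gene Grhl1 (0.977) and the TFIIH helicase gene Ercc3 (0.974). For Mapk3 the nearest were Nuak1 (0.944) and Ckap5 (0.932), for Mapk7 Tmem178 (0.966) and Pde7b (0.96), and for Mapk12 the retinoid receptor gene Rxra (0.943) and 4933428G20Rik (0.921). These genes were picked for their r among 14944, so no p is given.

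The other genes of the pathway came from lists written by hand, and in each list 0 passed the adjusted threshold in edgeR. Upstream, 1 of 19 tested MAP kinase kinase kinases stood at an unadjusted p under 0.05, and 14 of the 19 had a log2 fold change above 0 (median 0.12). Over all 14944 genes tested, the values to read these lists against are 6.85% at an unadjusted p under 0.05, 7246 genes above 0 and 7698 below, and a median of -0.01. The gene at that p was Map3k11, a kinase upstream of JNK, for which EV mice 1 to 5 had 110.1, 131.6, 99.39, 106.6 and 124.8 CPM. The values of sgZrsr2 mice 1, 2, 3 and 5 were 132.9, 133.1, 136.5 and 136.5 CPM, above every EV library. Of all genes tested, 3.06% were without overlap of the groups. Divided by library totals alone, the groups overlapped for Map3k11, with EV 2 at 133.4 CPM and sgZrsr2 1 at 128.5 CPM. The log2 fold change of Map3k11 was 0.24 (SE 0.10; edgeR unadjusted p = 0.0465, adjusted p = 0.714). The unadjusted p rose above 0.05 in most settings run, reaching 0.192 under limma-voom. With any 1 sgZrsr2 library left out, the edgeR unadjusted p was 0.0758 to 0.0865. Of 7 MAP kinase kinases none stood at an unadjusted p under 0.05, and 5 lay below 0 (median -0.05). The smallest p was that of Map2k1 (MEK1), the kinase that activates ERK, at 55.1 ± 6.32 CPM with EV (SD, n = 5). With sgZrsr2 it was at 37.93 and 36.19 CPM in mice 1 and 2 and at 54.98 and 51.39 CPM in mice 3 and 5 (log2 fold change -0.29; edgeR unadjusted p = 0.0841, adjusted p = 0.714). This value turned on the setting. It was -0.57 without the 3 libraries with Car1 at 10 CPM or more (edgeR unadjusted p = 0.00568, adjusted p = 0.332) and -0.52 under limma-voom (unadjusted p = 0.00164, adjusted p = 0.15). It was also under an unadjusted p of 0.05 without EV 3 (-0.34) and without sgZrsr2 3 (-0.40).

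Among 7 scaffold and partner genes tested, 1 stood at an unadjusted p under 0.05 and 5 lay above 0 (median 0.17). This was Spag9 (JIP4), a scaffold that binds JNK and p38, for which EV mice 1 to 5 had 127.2, 114.7, 124.5, 91.85 and 115.4 CPM. The values of sgZrsr2 mice 1, 2, 3 and 5 were 170, 164.6, 151.7 and 125.6 CPM, so that only sgZrsr2 5 overlapped with EV. The log2 fold change was 0.42 (SE 0.13; edgeR unadjusted p = 0.00805, adjusted p = 0.714). Of the 4 other MAP kinases tested, 1 lay above 0 and 3 below (median -0.04), and none stood at an unadjusted p under 0.05. The 10 phosphatases that switch MAP kinases off had 8 values below 0 (median -0.24) and none at an unadjusted p under 0.05. Dusp8, a phosphatase of JNK and p38, had the smallest p (0.185; edgeR adjusted p = 0.742), from 9 to 31 counts in the EV libraries and 0, 0, 27 and 7 counts in sgZrsr2 mice 1, 2, 3 and 5. Its unadjusted p was 0.00126 under limma-voom (adjusted p = 0.149) and 0.0146 without sgZrsr2 3. It was 0.00114 (adjusted p = 0.261) without the 3 libraries with Car1 at 10 CPM or more, where both remaining sgZrsr2 libraries are at 0 counts. Whether the unadjusted p of Dusp8 lay under 0.05 thus turned on the setting. The gene passed the adjusted threshold in none of the settings run.

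Downstream, 1 of 10 transcription factor substrates stood at an unadjusted p under 0.05, and 8 of the 10 lay above 0 (median 0.11). This was Elk4, a partner of serum response factor that MAP kinases phosphorylate, for which EV mice 1 to 5 had 68.79, 63.24, 70.83, 57.69 and 67.66 CPM. The sgZrsr2 mice 1, 2, 3 and 5 had 87.88, 78.09, 87.79 and 75.82 CPM, above every EV library, where 3.06% of all genes tested were without overlap. The log2 fold change was 0.33 (SE 0.10; edgeR unadjusted p = 0.00685, adjusted p = 0.714). Among 12 genes of ERK feedback and output, 8 lay below 0 (median -0.07) and 1 stood at an unadjusted p under 0.05. This was Ccnd1, the gene of cyclin D1, for which EV mice 1 to 5 had 110.3, 127.7, 97.27, 73.45 and 97.91 CPM. The sgZrsr2 mice 1, 2, 3 and 5 had 75.2, 77.41, 78.43 and 75.29 CPM. EV 4 was the lowest library of all, so the groups overlapped, and the log2 fold change was -0.40 (SE 0.14; edgeR unadjusted p = 0.017, adjusted p = 0.714). Without the 3 libraries with Car1 at 10 CPM or more its unadjusted p was 0.0846, with a log2 fold change of -0.41, and in the other settings run that p stayed under 0.05. The log2 fold change was -0.49 with the replicate block (edgeR unadjusted p = 0.00707, adjusted p = 1), -0.50 without EV 4 (unadjusted p = 0.00113, adjusted p = 0.976) and -0.58 under limma-voom (unadjusted p = 0.00136, adjusted p = 0.149). Its expected counts were whole in 0 of 9 libraries, which means that RSEM divided reads between it and other genes, and its level is uncertain. Of 11 kinases activated by MAP kinases none stood at an unadjusted p under 0.05. The smallest p there was that of Rps6ka4 (MSK2), with EV at 35.41 ± 4.55 CPM (SD, n = 5) and sgZrsr2 at 30.62 ± 5.01 CPM (SD, n = 4; edgeR adjusted p = 0.742), and under limma-voom its unadjusted p was 0.0337.

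**Figure D4:**
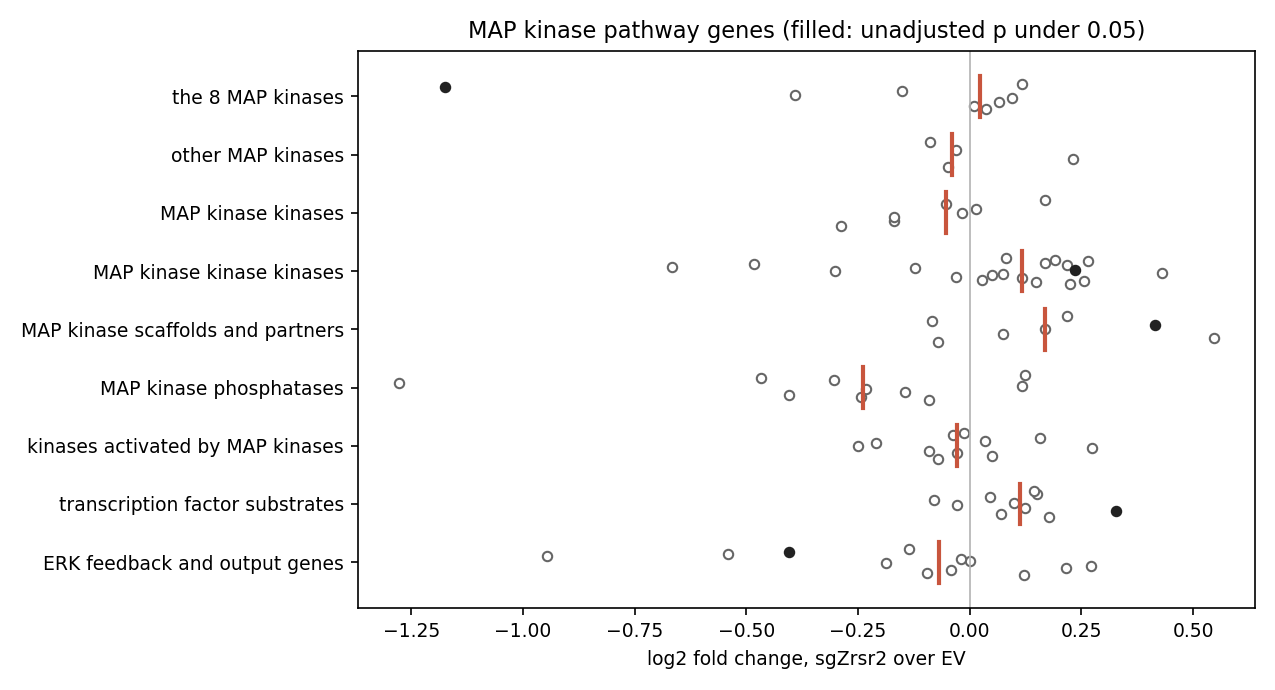
Log2 fold changes (sgZrsr2 over EV) of the tested genes of each pathway list, with filled points for an unadjusted edgeR p under 0.05 and a red line at the list's median. The filled points are Mapk13, Map3k11, Spag9, Elk4 and Ccnd1, and none of them passes the adjusted threshold.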

How the data were processed

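RNA of LSK cells from 9 mice was sequenced from polyadenylated RNA, 5 ng of total RNA per library, per the labels' protocols. The authors deposited expected counts per gene, 1 column per mouse. The submitters' processing notes name cutadapt 1.11, RSEM 1.2.30 and GRCm38; the aligner, annotation and strandedness are not given in the sources used here. RSEM divides reads that match several genes, and 9.78% to 13.3% of values per library were not whole.

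Expected counts were rounded, filtered with filterByExpr (minimum count 10, minimum total 15; 14944 of 38215 genes kept) and scaled with TMM. Groups were compared with edgeR 4.0.16 (quasi-likelihood, R 4.3.3), with Benjamini-Hochberg adjustment over all genes tested, which was tested on simulated data. Single levels were compared by exact permutation over the 126 splits of 9 libraries. Alternatives used limma 3.58.1, DESeq2 1.42.0, other scaling and filters, a replicate block and left-out libraries. From each pathway list every gene at an unadjusted p under 0.05, otherwise the gene with the smallest p, was named, and for each MAP kinase the 2 nearest genes; a few genes that these rules name are not reported here. The members and lists were chosen with earlier results of these data known. Sequences and exon lengths came from GENCODE M21 transcripts.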

Additional observations from a re-analysis of the deposited data

Results flagged for a closer look

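In 2 of the 16 sets of values (8 genes in 2 groups) a library stood far from the others of its group, where chance flags about 1 set in 20. Mapk3 was at 78.8 CPM in sgZrsr2 5, with the other 3 sgZrsr2 libraries between 71.1 and 72.2 CPM. Mapk9 was at 104 CPM in EV 3, with the other 4 EV libraries between 70.6 and 79.6 CPM.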

How the results depend on the processing

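Of the 8 MAP kinases, 0 passed the adjusted threshold in any setting run. Over all genes, DESeq2 called 16 and averaging sgZrsr2 mice 1 and 2 called 1, where edgeR called 0. The median log2 fold change of the 8 was -0.119 under limma-voom with sample weights. Signs turned for Mapk3 under limma-voom (-0.0607) and the replicate block (-0.0197), for Mapk7 under limma-voom (-0.187), the replicate block (-0.0607) and without the 3 libraries with high Car1 (-0.121), and for Mapk8 with sgZrsr2 mice 1 and 2 averaged (-0.0139). Leaving out 1 library at a time, log2 fold changes ran from -0.0274 to 0.103 for Mapk3, -0.0648 to 0.0755 for Mapk7 and -0.0281 to 0.253 for Mapk8, and CPM differences from -1.33 to 5.0, -1.75 to 1.95 and -0.683 to 8.02. Mapk9, Mapk11, Mapk12, Mapk13 and Mapk14 kept their sign in all of these fits, but their size moved. Over all fits, log2 fold changes ran from -0.473 to -0.00895 for Mapk12 and from -0.547 to -0.176 for Mapk11. Mapk9 had an unadjusted p of 0.0377 under limma-voom (adjusted p = 0.267). Genes at an unadjusted p under 0.05 numbered 2551 under limma-voom, 1692 without the libraries with high Car1, 609 without EV 4 and 341 with the replicate block, against 1024. Deviations of same-numbered mice correlated at -0.227, -0.0904 and -0.404 for numbers 1, 2 and 3 and at 0.369 for number 5, so the numbers were not taken as pairs. Mapk12 and Mapk13 had the fewest counts. The cause of these changes was not tested.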

Other observations

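The U12-type donor motif was read in 154 genes in all, of which 138 were tested. As a description chosen after the data were seen, 59 of the 138 had a log2 fold change above 0 and 79 below 0, with a median of -0.03. All 14944 genes tested had 7246 above 0 and 7698 below, with a median of -0.01. At an unadjusted p under 0.05 stood 9 that were higher and 3 that were lower with sgZrsr2, against 579 and 445 of all genes, and 0 passed the adjusted threshold in edgeR.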
